A study of Mus musculus with 6 samples.

Results

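The genes examined here encode the 5 subunits of the IL-12 cytokine family, Il12a, Il12b, Il23a, Il27 and Ebi3. They were chosen by name as the chains of IL-12, IL-23, IL-27 and IL-35, and they are 5 of the 56748 Ensembl genes in the deposited count files. All 5 symbols matched 1 Ensembl ID each. RNA was taken from unstimulated bone marrow-derived dendritic cells (BMDCs) of C57BL/6 WT mice and of mice with a global deletion of Nfkb2 (Nfkb2-/-), with 3 libraries per genotype and 6 in all. The strain background of the Nfkb2-/- mice is not given in the sources used here. Both genotypes were grown in the same medium, with GM-CSF for 5 days and then GM-CSF with IL-4 for 4 days, so that every library came from cells exposed to both cytokines. The study describes the libraries of a genotype as independent biological replicates, and the age of the mice and the number that entered each library are not given in the sources used here. Values of the 3 libraries of a genotype are listed throughout in the order of replicates 1, 2 and 3. The WT libraries held 43126299, 31622131 and 33211096 counts, and the Nfkb2-/- libraries held 29863927, 31622146 and 55623068. BMDC cultures are mixed and the deletion is present in every cell, so a change in these bulk libraries can arise in DCs or in other cells of the culture.

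Each cytokine of the family is a dimer of 1 α chain, a 4-helix cytokine, and 1 β chain that resembles a soluble cytokine receptor. Il12b encodes p40, the β chain of IL-12 and IL-23. Ebi3 encodes the β chain of IL-27 and IL-35. The α chains are p35, encoded by Il12a and used in IL-12 and IL-35, p19, encoded by Il23a and used in IL-23, and p28, encoded by Il27 and used in IL-27. Activated DCs are a main source of IL-12, which directs Th1 responses, and of IL-23, which sustains Th17 cells, whereas IL-27 and IL-35 are known mostly for restraining T cells. NF-κB factors are known activators of several of these genes. Nfkb2 encodes p100, the precursor of p52, which acts with RelB in the noncanonical pathway.

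Before the subunits were compared, the libraries were checked against their labels. Nfkb2 measured 215, 154 and 355 CPM (counts scaled to a common library size after correction for library composition) in WT and 44.8, 32.3 and 32.6 CPM in Nfkb2-/- BMDCs, a log2 fold change of -2.72 (edgeR adjusted p = 0.0307). All WT values lay above all Nfkb2-/- values. Exons of Nfkb2 share bases with Psd and AC114539.1 on the other strand, and the remaining Nfkb2 counts cannot be assigned with certainty. The DC genes Cd74 and Itgax were abundant in all libraries, whereas other DC genes, such as Flt3 and Cd209a, were lower. Cd74, the MHC class II invariant chain, measured 1870 to 3691 CPM, and Itgax, which encodes CD11c, measured 123 to 277 CPM in WT and 716 to 769 CPM in Nfkb2-/- BMDCs. T and NK cell markers summed to at most 3.81 CPM and B cell markers to at most 3.90 CPM in any library. Nfkb2-/- replicate 1 stood apart. It had at least 1 count on 47952 genes, against 27692 to 33841 in the other libraries, and among the 6533 genes tested with a mean under 1 CPM it held the highest value for 62.0%. WT replicate 3 was low in macrophage markers, which summed to 147 CPM there, against 872 and 991 CPM in the other WT libraries and 539 to 684 CPM in the Nfkb2-/- libraries. Csf1r was the most abundant of these 11 markers, which here and for the other lists means the highest in CPM, and none of them was at 0 in any library. Because of these differences, the results on the subunits are also given with single libraries left out.

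The family was expressed unevenly in BMDCs, with the β chains abundant and the α chains close to the limit of detection. Levels of different genes were compared as CPM per kb of exon. Il12b averaged 50.1 ± 31.1 CPM per kb (SD, n = 3) in WT BMDCs and Ebi3 31.9 ± 7.05 CPM per kb (SD, n = 3). The α chains averaged 0.0246 for Il12a, 0.157 for Il23a and 0.204 for Il27 on the same scale. Together Il12b and Ebi3 made up 99.1% to 99.9% of the family's summed CPM per kb in the WT libraries and 93.6% to 98.8% in the Nfkb2-/- libraries. In WT, the order of the means was Il12b, Ebi3, Il27, Il23a and Il12a. The libraries of the neighbours Il12b and Ebi3 overlapped, as did those of Il27 and Il23a, whereas every Ebi3 value lay above every Il27 value and every Il23a value above every Il12a value. In Nfkb2-/- BMDCs, Ebi3 was the most abundant subunit, at 11.9 ± 0.640 CPM per kb (SD, n = 3), and Il12b followed at 5.90 ± 0.946 CPM per kb (SD, n = 3), without overlap.

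**Figure D1:**
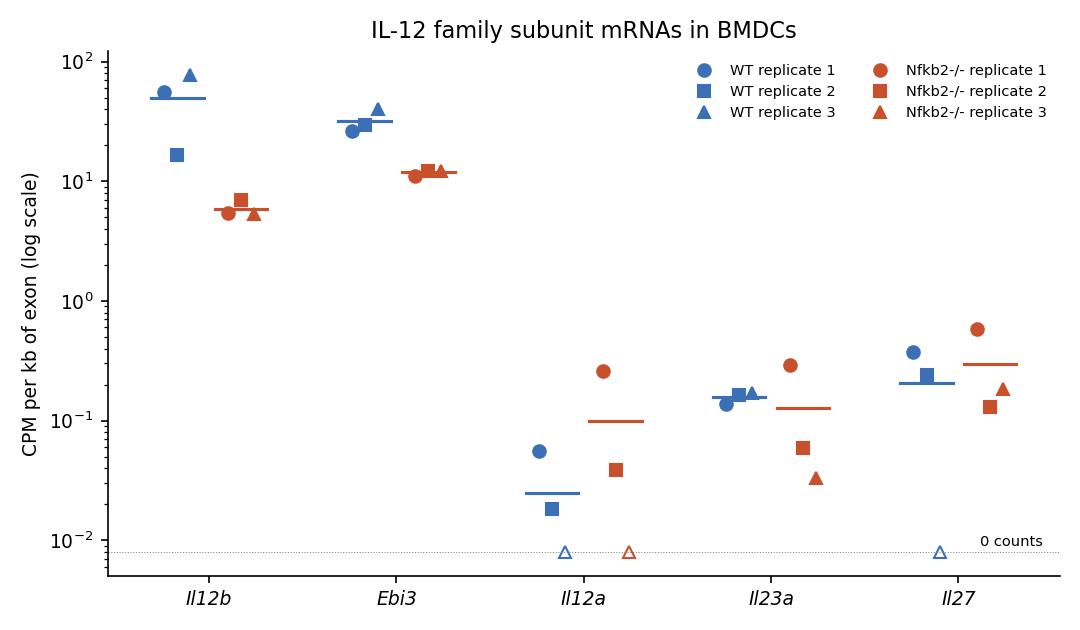
Levels of the 5 subunit mRNAs in each library, as CPM per kb of exon on a log axis, with WT in blue and Nfkb2-/- in red. The symbol shape gives the replicate number, horizontal lines are the means of 3 libraries, and open symbols on the dotted line stand for 0 counts. Il12b and Ebi3 lie above the 3 α chain genes in all 6 libraries, and their Nfkb2-/- values lie below their WT values.

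Both β chain genes were lower in Nfkb2-/- BMDCs, Il12b by 8.51-fold and Ebi3 by 2.68-fold. Neither tested α chain gene, Il23a or Il27, passed the threshold, and Il12a had too few counts to enter the test. The test was the quasi-likelihood test of edgeR on the 21849 named genes that had at least 50 counts in all. Differentially expressed, or called, means an adjusted p (Benjamini-Hochberg) below 0.05 with more than a 1.2-fold difference. Log2 fold changes are Nfkb2-/- over WT and are given ± standard error. Of the genes tested, 1.14% were called, 0.682% as lower and 0.453% as higher in Nfkb2-/- BMDCs. Of the 5 subunits, 4 were tested and 2 were called, both as lower.

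Il12b (ENSMUSG00000004296, GRCm38 chromosome 11, 44400063 to 44414033, plus strand) measured 110, 32.7 and 153 CPM in WT, from 4633, 1063 and 4455 counts. In Nfkb2-/- BMDCs it measured 10.6, 13.7 and 10.4 CPM, from 360, 417 and 557 counts. The WT libraries differed among themselves by up to 4.69-fold, with replicate 2 lowest, whereas the Nfkb2-/- libraries lay close together. Even so the lowest WT library was above the highest Nfkb2-/- library. The coefficient of variation was 61.9% in WT and 16.0% in Nfkb2-/- BMDCs. The log2 fold change was -3.09 ± 0.53 (quasi-likelihood test of edgeR, adjusted p = 0.0489). This adjusted p-value lies just inside the threshold. The call held with DESeq2 (adjusted p = 4.41e-08), with limma voom (adjusted p = 0.0441) and without WT replicate 2 (adjusted p = 0.00508 from edgeR). It was lost when any other single library was left out, with adjusted p-values of 0.202 without WT replicate 1, 0.0622 without WT replicate 3, and 0.116, 0.217 and 0.204 when Nfkb2-/- replicate 1, 2 or 3 was left out (edgeR), while the log2 fold change stayed between -3.50 and -2.62. In an exact permutation test of the 6 libraries (two-sided), p was 0.1, the smallest value that 3 against 3 allows.

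Ebi3 (ENSMUSG00000003206, GRCm38 chromosome 17, 55952640 to 55957022, plus strand) varied less in WT. It measured 30.6, 34.0 and 46.0 CPM in WT, from 1288, 1104 and 1338 counts. The Nfkb2-/- values were 12.9, 14.2 and 14.1 CPM, from 436, 430 and 756 counts. All 3 Nfkb2-/- libraries lay below all 3 WT libraries, and the coefficient of variation was 22.1% in WT and 5.37% in Nfkb2-/- BMDCs. The log2 fold change was -1.42 ± 0.19 (quasi-likelihood test of edgeR, adjusted p = 0.0332; exact permutation p = 0.1, two-sided). By p-value Ebi3 was number 79 and Il12b number 233 of the genes tested. Adjusted p-values of Ebi3 were 1.04e-07 with DESeq2 and 0.0233 with limma voom. The edgeR call held when WT replicate 2 or WT replicate 3 was left out, with adjusted p-values of 0.0174 and 0.0293. It was lost when WT replicate 1 was left out (0.125) and when Nfkb2-/- replicate 1, 2 or 3 was (0.0898, 0.196 and 0.166, edgeR), with log2 fold changes from -1.54 to -1.23. In each of the 4 fits without 1 library in which both genes lost their call, edgeR called 0 genes of all those tested, and 2325 to 4088 genes had an unadjusted p-value under 0.05. Every other call given here, that of Nfkb2 included, was therefore lost in these 4 fits too. As background for these calls, 8.65% of the genes tested were called with DESeq2, 2.23% with limma voom, 5.87% without WT replicate 2 and 1.27% without WT replicate 3. Both genes were also called with RLE size factors, total counts, filterByExpr, no filter, a minimum of 10 counts in every library and unnamed IDs kept, where 1.09%, 1.13%, 2.06%, 3.50%, 2.82% and 1.07% of the genes tested were called. An antisense gene, Gm16712, shares 270 exonic bases with Ebi3 and had 39 to 74 counts per library. Whether the authors' counting used strand is not given in the sources used here, so reads from the shared bases cannot be assigned with certainty.

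**Figure D2:**
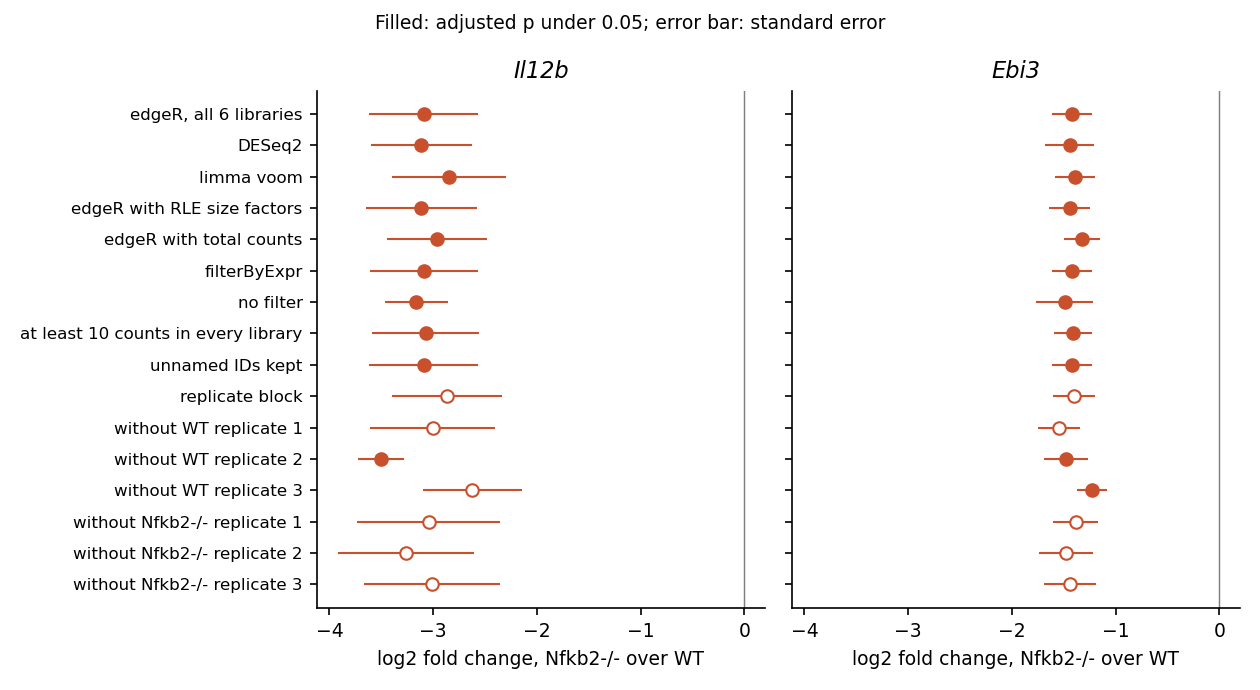
Log2 fold change of Il12b and Ebi3 (Nfkb2-/- over WT) with its standard error in the fit of all 6 libraries and in 15 alternatives. Filled points have an adjusted p-value under 0.05. The estimates for Il12b lie between -3.50 and -2.62 and those for Ebi3 between -1.54 and -1.23, while the call is lost with the replicate block and in most fits that leave out 1 library.

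Within a library, the ratio of Il12b to Ebi3 per kb was 2.11, 0.565 and 1.95 in WT and 0.484, 0.569 and 0.432 in Nfkb2-/- BMDCs. WT replicate 2 lay within the range of the Nfkb2-/- libraries. The ratio was lower by 1.43 on the log2 scale in the mean of Nfkb2-/- BMDCs (exact permutation p = 0.2, two-sided). Since 3 libraries against 3 cannot give a p below 0.1, the test could not show whether the decreases of Il12b and Ebi3 differed in size.

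The promoters of the β chain genes, which fell together, are printed to show the sequence before their transcription starts. The 250 bases before the start in RefSeq (GRCm38.p6, plus strand) are given 5′ to 3′, at chr11:44399813-44400062 for Il12b and at chr17:55952373-55952622 for Ebi3, with capitals for bases that match a searched motif.
Il12b: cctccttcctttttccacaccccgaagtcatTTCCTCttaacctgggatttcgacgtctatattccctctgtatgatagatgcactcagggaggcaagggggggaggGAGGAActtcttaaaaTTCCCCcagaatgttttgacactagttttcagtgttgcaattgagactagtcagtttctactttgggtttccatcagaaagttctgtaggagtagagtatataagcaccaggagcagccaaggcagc
Ebi3: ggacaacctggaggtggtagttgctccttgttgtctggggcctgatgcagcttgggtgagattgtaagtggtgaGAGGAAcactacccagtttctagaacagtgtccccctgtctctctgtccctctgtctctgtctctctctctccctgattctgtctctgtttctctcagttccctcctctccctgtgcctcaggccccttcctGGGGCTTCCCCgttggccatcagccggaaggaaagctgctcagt

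Both strands were searched for 6 motifs. These were an NF-κB motif made of 3 G, 5 bases of any kind and 2 C, GGGGAA for the more constant side of an NF-κB site, an IRF motif in which GAAA recurs after 2 bases of any kind, GAGGAA for PU.1 and other ETS factors, TGANTCA for AP-1 and TATAAA for the TATA box. Both promoters held GGGGAA on the minus strand, written TTCCCC above, at -127 to -122 from the Il12b start and at -39 to -34 from the Ebi3 start. It occurs in 20.3% of the 32851 promoters of this length. GAGGAA occurs in 23.3% of them and was found at -219 to -214 and -143 to -138 of Il12b and at -176 to -171 of Ebi3. The NF-κB motif, present in 45.8%, overlapped the GGGGAA match of Ebi3, at -44 to -34, and had no match in the Il12b window. The IRF motif, TGANTCA and TATAAA occur in 2.98%, 6.75% and 12.4% and matched neither. For Il12a the table holds 2 starts, and of these the downstream one had an NF-κB motif match and the upstream one no match to any motif. Il23a and Il27 were not in the promoter table. Matches of letters are a description and say nothing about binding, which these libraries did not measure.

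The α chain genes gave few reads. Il12a (ENSMUSG00000027776, GRCm38 chromosome 3, 68690644 to 68698547, plus strand) had 4, 1 and 0 counts in WT and 15, 2 and 0 counts in Nfkb2-/- BMDCs. Its 22 counts were below the minimum of 50, and 68.2% of them came from Nfkb2-/- replicate 1. A count of 0 allows up to 3 counts, or 0.103 CPM in WT replicate 3 and 0.0561 CPM in Nfkb2-/- replicate 3, as counting error only. With no filter on counts its log2 fold change was 1.64 ± 2.21 (edgeR adjusted p = 0.773), and a difference between the genotypes was not detectable at this depth.

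Il23a (ENSMUSG00000025383, GRCm38 chromosome 10, 128296139 to 128298752, minus strand) had 13, 12 and 11 counts in WT and 22, 4 and 4 counts in Nfkb2-/- BMDCs. In CPM these were 0.308, 0.369 and 0.379 in WT and 0.650, 0.132 and 0.0748 in Nfkb2-/- BMDCs. The WT libraries lay between Nfkb2-/- replicate 1 and the other Nfkb2-/- libraries. The log2 fold change was -0.31 ± 0.97 (edgeR adjusted p = 0.898), and it was 0.16 without Nfkb2-/- replicate 3. With limma voom it was -1.04 (adjusted p = 0.646), and with the replicate number as a block -0.85 (edgeR adjusted p = 0.812). Without Nfkb2-/- replicate 1, Il23a fell under the minimum of counts and was not tested.

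Il27 (ENSMUSG00000044701, GRCm38 chromosome 7, 126589010 to 126594941, minus strand) had 16, 8 and 0 counts in WT and 20, 4 and 10 counts in Nfkb2-/- BMDCs. The corresponding values were 0.380, 0.246 and 0 CPM in WT and 0.591, 0.132 and 0.187 CPM in Nfkb2-/- BMDCs. The genotypes overlapped, with both the lowest and the second highest value in WT. The log2 fold change was 0.51 ± 1.27 (edgeR adjusted p = 0.871), and without WT replicate 3 it was -0.053. The 3′ end of Il27 shares 103 exonic bases with Apobr, a lipoprotein receptor gene on the other strand that had 269 to 562 counts per library. Some of the few reads on Il27 may therefore belong to Apobr. For Il23a and Il27 a difference between the genotypes was not detectable at this depth, and the standard errors do not exclude changes of the size seen for Ebi3.

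To see how far each β chain exceeded its partners, levels per kb were divided within each library, with 0.5 counts added to each gene. Il12b exceeded Il23a by 392-fold, 97.2-fold and 443-fold in WT and by 18.3-fold, 106-fold and 142-fold in Nfkb2-/- BMDCs. From the counts alone, Il12b exceeded Il12a by 1002-fold in WT replicate 1 (95% exact binomial interval 391 to 3678) and 919-fold in WT replicate 2 (165 to 36340). In Nfkb2-/- replicates 1 and 2 it did so by 20.8-fold (12.4 to 37.5) and 180-fold (49.6 to 1494), and these intervals cover counting error only. Where Il12a had 0 counts, set to the floor of 3 counts per library, the excess was at least 1284-fold in WT replicate 3 and at least 161-fold in Nfkb2-/- replicate 3. Ebi3 exceeded Il27 by 69.1-fold and 115-fold in WT replicates 1 and 2 and by 18.8-fold to 84.6-fold in the Nfkb2-/- libraries. In WT replicate 3, where Il27 had 0 counts, the excess over Il27 at the same floor was at least 395-fold. The mean log2 ratio was lower in Nfkb2-/- BMDCs for all 4 pairs of chains, by 3.52 for Il12b to Il12a, 1.98 for Il12b to Il23a, 2.51 for Ebi3 to Il27 and 2.09 for Ebi3 to Il12a. The exact permutation p-values were 0.3, 0.3, 0.2 and 0.4 (two-sided, for 4 pairs), and 3 libraries against 3 cannot give a p below 0.1, so that none could pass the threshold. The differences rest on few counts, with libraries at 0 entering through the 0.5 counts added. In the same order of pairs they were -2.11, -1.07, -1.86 and -0.70 without Nfkb2-/- replicate 1 and -2.39, -1.59, -0.93 and -1.24 without WT replicate 3, and for Ebi3 to Il12a -3.57 without Nfkb2-/- replicate 3. The lowest ratio of each pair was in Nfkb2-/- replicate 1, the library with the most counts on genes of low level.

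None of the receptor genes of the family passed the threshold, and for 3 of the 5 the genotypes did not overlap. IL-12 binds Il12rb1 with Il12rb2, IL-23 binds Il12rb1 with Il23r, and IL-27 binds Il27ra with Il6st, the gp130 chain shared with IL-6. Of these 5 genes, 0 were called by edgeR on all 6 libraries with the minimum of 50 counts. Il12rb2 averaged 186 ± 105 CPM (SD, n = 3) in WT and 131 ± 14.7 CPM (SD, n = 3) in Nfkb2-/- BMDCs, with overlap. Il12rb1, its partner, measured 0.308, 0.369 and 0.0688 CPM in WT and 2.33, 0.330 and 0.225 CPM in Nfkb2-/- BMDCs. The single high value was again in Nfkb2-/- replicate 1.

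Il23r measured 49.1, 33.8 and 60.9 CPM in WT and 18.9, 24.2 and 20.6 CPM in Nfkb2-/- BMDCs. Il6st measured 479, 299.5 and 587 CPM in WT and 219, 209 and 216 CPM in Nfkb2-/- BMDCs. For both genes every Nfkb2-/- library lay below every WT library, but the threshold was missed, with log2 fold changes of -1.18 ± 0.24 for Il23r and -1.09 ± 0.25 for Il6st (edgeR adjusted p = 0.0676 and 0.0921). Il27ra had the opposite pattern at a low level, 1.35, 2.86 and 1.79 CPM in WT and 4.64, 4.91 and 4.36 CPM in Nfkb2-/- BMDCs, also without overlap (log2 fold change of 1.21 ± 0.31, edgeR adjusted p = 0.117). With DESeq2 these 3 receptor genes passed, with adjusted p-values of 6.09e-04 for Il23r, 0.00176 for Il6st and 0.0179 for Il27ra, while with limma voom none did (0.0514, 0.0706 and 0.0727). With edgeR they passed with no filter on counts (0.000499, 0.0168 and 0.0496) and without WT replicate 2 (0.0148, 0.0124 and 0.0287). Over the 15 alternatives Il23r passed in 4, Il6st in 3 and Il27ra in 3. Groups without overlap are frequent in these data, since 24.7% of all genes tested showed none. DESeq2 called 8.65% of all genes tested, and edgeR 3.50% with no filter and 5.87% without WT replicate 2.

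Of 5 kinases and STAT factors that carry signals from these receptors, 0 were called by edgeR, DESeq2 or limma voom. The kinase genes Jak1, Jak2 and Tyk2 overlapped between the genotypes and had log2 fold changes of -0.12, -0.091 and -0.052. Jak2 was the most abundant of the 5, at 3010 ± 680 CPM (SD, n = 3) in WT and 2826 ± 529 CPM (SD, n = 3) in Nfkb2-/- BMDCs. Stat4, the main transducer of IL-12, measured 239, 144 and 379 CPM in WT and 104, 135 and 146 CPM in Nfkb2-/- BMDCs, with an overlap of WT replicate 2 and Nfkb2-/- replicate 3 (log2 fold change of -0.99 ± 0.34, edgeR adjusted p = 0.203). Stat3, used by IL-23 and IL-27, measured 282, 222 and 489 CPM in WT and 217, 200 and 185 CPM in Nfkb2-/- BMDCs, without overlap (log2 fold change of -0.72 ± 0.29, edgeR adjusted p = 0.262). Of 7 genes that these cytokines control in T and NK cells, 2 had enough counts to be tested, Il18r1 and Tbx21, and 0 were called. Ifng, Il17a, Il17f, Il21 and Il22 were under the minimum of counts.

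**Figure D3:**
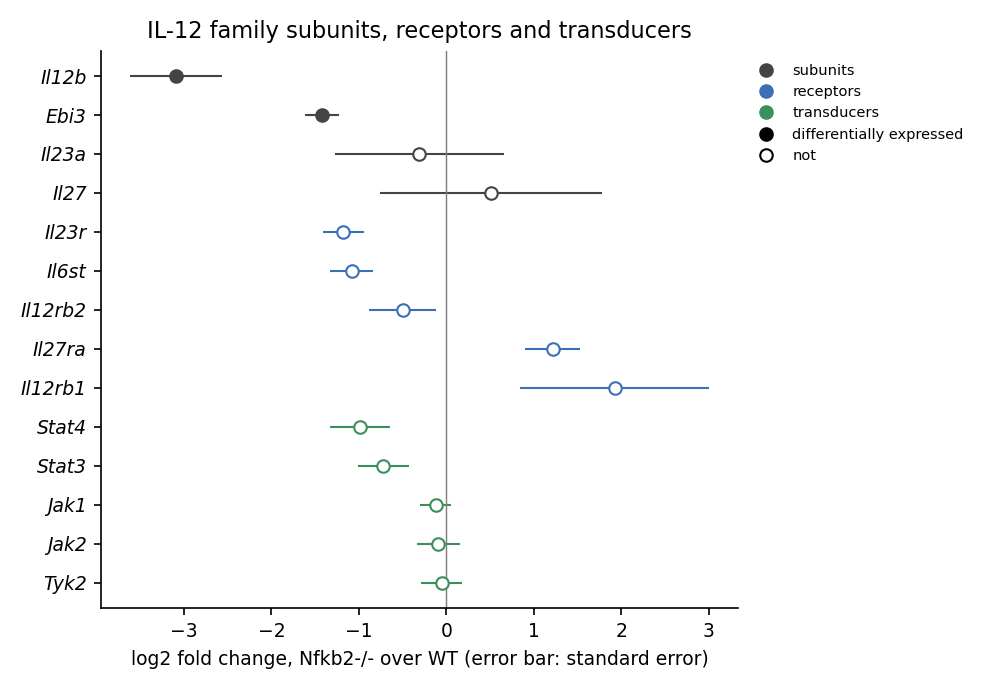
Log2 fold change, Nfkb2-/- over WT, with its standard error from edgeR for the 4 subunits tested and for the 5 receptor and 5 transducer genes. Filled points are differentially expressed. Only Il12b and Ebi3 are filled, at -3.09 and -1.42, and Il12a is missing because its 22 counts were too few.

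Among 19 transcription factors known to act on these genes, Irf1 was called, as lower in Nfkb2-/- BMDCs. Irf1, an interferon regulatory factor that activates Il12a, Il12b and Il27, measured 24.4, 19.4 and 29.9 CPM in WT and 10.7, 10.8 and 11.2 CPM in Nfkb2-/- BMDCs. Its 3 Nfkb2-/- values lay close together and below all WT values (log2 fold change of -1.17 ± 0.19, edgeR adjusted p = 0.0461). Over the 15 alternatives its adjusted p-value ranged from 3.19e-05 to 0.222, and it passed in 9 of them. The edgeR call was lost when any single library other than WT replicate 2 was left out, with an adjusted p of 0.0510 for WT replicate 3 and 0.202 for WT replicate 1. The median log2 fold change of the 19 factors was -0.27, against 0.076 for all genes tested, and 6 of them were lower and 2 higher without overlap, where all genes tested gave 12.0% lower and 12.7% higher without overlap.

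Irf8, which works with Irf1 on Il12b and is needed for the DC subset that makes most IL-12, had the lowest log2 fold change of the 19. It measured 379, 173 and 540 CPM in WT and 93.3, 84.0 and 107 CPM in Nfkb2-/- BMDCs, without overlap, and missed the threshold (log2 fold change of -1.94 ± 0.39, edgeR adjusted p = 0.0660). It passed in 4 of 15 alternatives, with adjusted p-values of 3.58e-05 with DESeq2 and 0.00707 without WT replicate 2 (edgeR). The WT libraries of Irf8 were in the same order as those of Il12b, with replicate 2 lowest and replicate 3 highest. This order was not particular to Irf8, since Irf1, Irf4, Rel, Rela and Relb of the same list also had it. Rel, which encodes c-Rel, an activator of Il12b, Il12a and Il23a, was the most abundant factor of the list at 2068 ± 338 CPM (SD, n = 3) in WT and 1413 ± 61.5 CPM (SD, n = 3) in Nfkb2-/- BMDCs (log2 fold change of -0.55 ± 0.19, edgeR adjusted p = 0.203). Rela and Jun also lay lower without overlap, with log2 fold changes of -0.66 and -0.50, and Irf5 and Spi1, which encodes PU.1, lay higher without overlap, with 0.62 and 0.37. None of these 4 passed the threshold in edgeR (adjusted p = 0.190, 0.140, 0.104 and 0.232), and DESeq2 called Jun, Irf5 and Rel (adjusted p = 0.0212, 0.00345 and 0.0258). DESeq2 called 8.65% of all genes tested. Irf4 and Nfkb1, the other abundant factors, overlapped, with log2 fold changes of 0.14 and 0.071. Relb, which encodes the partner of p52, measured 201, 119 and 260 CPM in WT and 140, 106 and 119 CPM in Nfkb2-/- BMDCs, with overlap (adjusted p = 0.290 from edgeR).

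**Figure D4:**
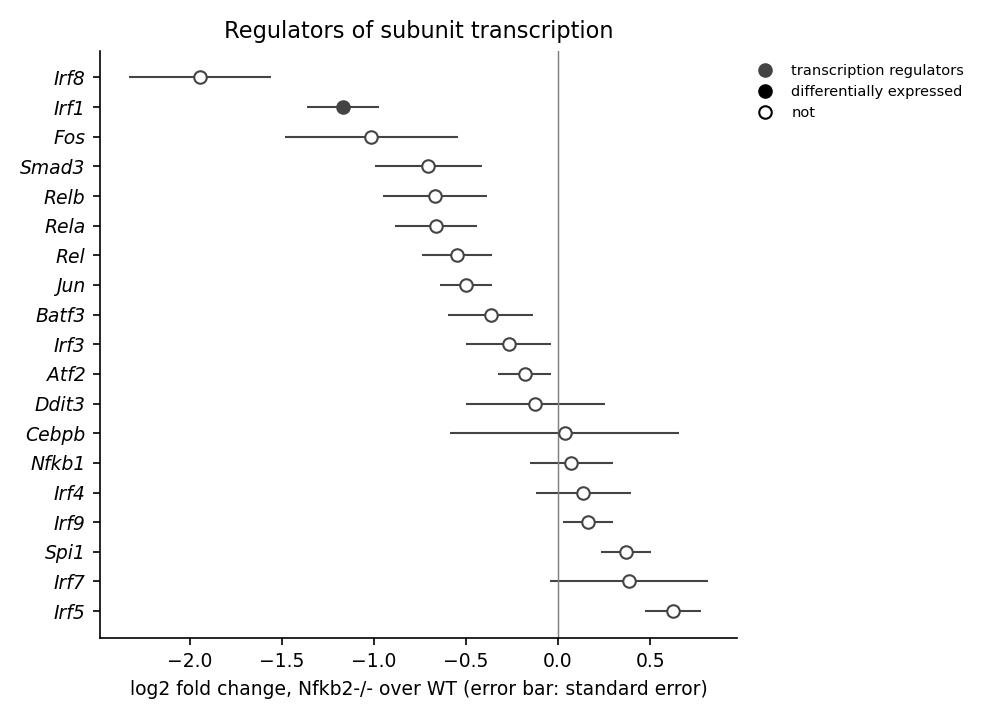
Log2 fold change, Nfkb2-/- over WT, with its standard error from edgeR for 19 transcription factors that act on the subunit genes. The filled point, Irf1 at -1.17, is the 1 differentially expressed factor, and Irf8 at -1.94 has the lowest log2 fold change.

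Of 12 receptors and adaptors through which microbes, CD40 ligand or interferon-γ induce the family, 0 were called by edgeR, DESeq2 or limma voom, and the median log2 fold change was -0.12. The 4 most abundant, Clec7a, Tlr4, Ifngr1 and Ifngr2, overlapped between the genotypes. Tlr4, the LPS receptor, measured 118, 253 and 39.4 CPM in WT and 197, 327 and 339 CPM in Nfkb2-/- BMDCs. Its lowest value was in WT replicate 3, as were those of Clec7a, Ifngr1, Tlr2, Tlr3, Tlr7 and Myd88. Cd40 was lower without overlap, at 34.2, 22.7 and 49.8 CPM in WT and 21.7, 20.6 and 21.1 CPM in Nfkb2-/- BMDCs (log2 fold change of -0.75 ± 0.27, edgeR adjusted p = 0.223). Tlr9 and Irak4 also lay lower without overlap, with log2 fold changes of -0.22 and -0.12. Thus 3 of the 12 lay lower and 0 higher without overlap, against 12.0% and 12.7% of all genes tested.

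Of the 8 IL-6 family ligands, 6 were tested and 0 were called by edgeR, DESeq2 or limma voom. Il6 measured 14.3, 24.1 and 21.9 CPM in WT and 19.1, 27.9 and 23.1 CPM in Nfkb2-/- BMDCs, with overlap (log2 fold change 0.22, adjusted p = 0.681 from edgeR), and Osm, Clcf1 and Lif, the next in abundance, also overlapped. Of 8 other cytokines made by DCs, Il6 included, edgeR and limma voom called 0 and DESeq2 called 1, Tnf (adjusted p = 0.00669), and 6 had a log2 fold change above 0. Tgfb1 and Tnf lay higher and Il15 and Il18 lower without overlap. Among all genes tested, 12.7% lay higher and 12.0% lower without overlap, and DESeq2 called 8.65%. Tgfb1, the most abundant, measured 151, 175 and 119 CPM in WT and 201, 206 and 226 CPM in Nfkb2-/- BMDCs (log2 fold change of 0.51 ± 0.18, edgeR adjusted p = 0.207). Tnf measured 7.14, 13.0 and 2.13 CPM in WT and 28.1, 26.9 and 28.7 CPM in Nfkb2-/- BMDCs (log2 fold change of 1.91 ± 0.55, edgeR adjusted p = 0.143). Il15 measured 79.7, 46.6 and 74.0 CPM in WT and 31.0, 44.2 and 43.1 CPM in Nfkb2-/- BMDCs (log2 fold change of -0.76 ± 0.25, edgeR adjusted p = 0.180). Il1a varied widely, at 1.65 to 27.1 CPM in WT and 18.9 to 35.6 CPM in Nfkb2-/- BMDCs. Il10 was near the floor, at 0 to 0.620 CPM.

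Il12b and Ebi3 are genes of mature DCs, and the level of other such genes differed between the libraries too. In bulk RNA, fewer mature cells and less mRNA per cell cannot be told apart. The 12 genes listed as markers of mature DCs summed to 13430, 10420 and 19530 CPM in WT and 12340, 12520 and 11800 CPM in Nfkb2-/- BMDCs, and none was at 0. Ccl22 was the most abundant, at 7787, 5890 and 10730 CPM in WT and 6072, 5826 and 5357 CPM in Nfkb2-/- BMDCs, with overlap. In the sum of the 12 genes WT replicate 2 was the lowest of the 6 libraries and WT replicate 3 the highest, and Il12b was likewise lowest in replicate 2 and highest in replicate 3 among the WT libraries. Ccl17 contributed 2357 to 2472 CPM to the Nfkb2-/- sums and 161 to 432 CPM to the WT sums. The sums therefore do not show how the other genes of the list compare between the genotypes. Of the 12, 5 had a log2 fold change above 0 and 7 below. Ccl17, a chemokine for CCR4, rose in Nfkb2-/- BMDCs from 161, 361 and 432 CPM to 2385, 2472 and 2357 CPM (log2 fold change of 2.92 ± 0.37, edgeR adjusted p = 0.0307) and was the 1 gene of 12 that was called. DESeq2 also called Fscn1 and Cd83 as lower (adjusted p = 5.01e-04 and 0.0145). Cd86 lay higher, and Fscn1, Cd83, Cd274 and Cd40 lay lower, without overlap. Of all genes tested, 12.7% lay higher and 12.0% lower without overlap, and DESeq2 called 8.65%. Fscn1, which encodes the actin-bundling protein fascin, measured 1378, 719 and 1853 CPM in WT and 479, 416 and 515 CPM in Nfkb2-/- BMDCs (log2 fold change of -1.49 ± 0.34, edgeR adjusted p = 0.0902). Ccr7 overlapped, at 1149, 640 and 1897 CPM in WT and 673, 611 and 596 CPM in Nfkb2-/- BMDCs.

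Each β chain gene was then set against each of the 12 genes within its own library, a comparison added after the values were seen. For Il12b the level per kb relative to the marker was lower in all 3 Nfkb2-/- libraries than in all 3 WT libraries with each of the 12 markers, by 1.45 (Fscn1) to 5.87 (Ccl17) on the log2 scale. Relative to Ccr7 it was 9.62%, 5.14% and 8.13% in WT and 1.59%, 2.26% and 1.76% in Nfkb2-/- BMDCs. For Ebi3 this held with 10 of the 12 markers and not with Fscn1 and Cd83. The log2 fold change of Il12b, -3.09, was below those of all 12 markers, which ran from -1.49 to 2.92. Its count of 12 therefore largely restates its decrease. For Ebi3, whose -1.42 lay below the values of all markers except Fscn1, the count of 10 largely restates a decrease too. For neither gene was the count made with all genes in place of the markers. Relative to Fscn1, Ebi3 measured 5.79%, 12.3% and 6.49% in WT and 7.02%, 8.90% and 7.17% in Nfkb2-/- BMDCs, a mean difference of -0.016 on the log2 scale. The log2 fold change of Ebi3, -1.42, was close to the -1.49 of Fscn1, which missed the threshold. The part that the share of mature cells had in the decreases of Il12b and Ebi3 was not tested.

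**Figure D5:**
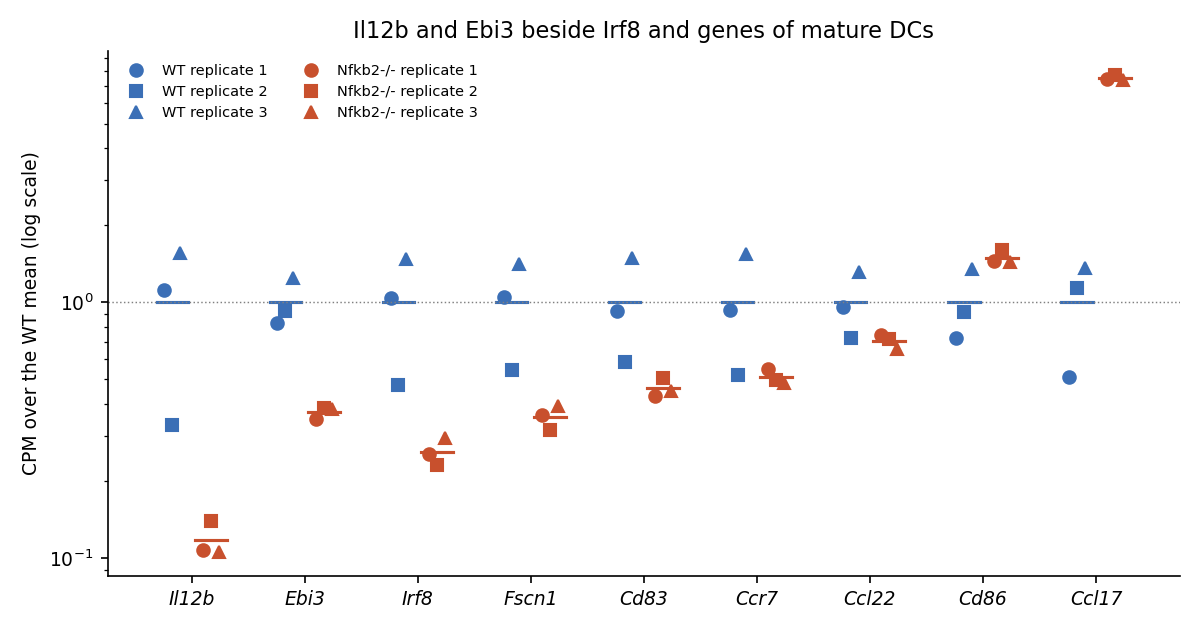
Level of Il12b, Ebi3, Irf8 and 6 genes of mature DCs in each library, as CPM divided by the WT mean of the gene, on a log axis, with WT in blue and Nfkb2-/- in red. Lines are means of 3 libraries. The Nfkb2-/- libraries of Il12b, at 10.4 to 13.7 CPM against a WT mean of 98.6 CPM, lie lowest of the genes shown, while those of Ccl17 lie above their WT values.

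Markers of other cells were given by their sums. The 6 genes of type 1 conventional DCs, which include Xcr1 and Clec9a, summed to 116, 259 and 55.4 CPM in WT and 596, 563 and 575 CPM in Nfkb2-/- BMDCs. Wdfy4 made up most of this in every library except WT replicate 3, at 91.5, 231 and 25.5 CPM in WT and 557, 533 and 547 CPM in Nfkb2-/- BMDCs. Clec9a and Itgae lay higher without overlap as well, at up to 5.24 and 11.3 CPM, and Batf3 overlapped. Xcr1 was at 0 in WT replicate 1 and at most 0.620 CPM elsewhere. Of the 6, edgeR called 0 (adjusted p = 0.160 for Wdfy4, 0.113 for Clec9a and 0.0735 for Itgae), limma voom called Itgae (adjusted p = 0.0359), and DESeq2 called these 3 as higher in Nfkb2-/- BMDCs (adjusted p = 0.00429, 0.0157 and 3.83e-04). Of all genes tested, DESeq2 called 8.65% and limma voom 2.23%, and 12.7% lay higher without overlap. Of 10 genes of DC identity, Itgax was called, as higher in Nfkb2-/- BMDCs (log2 fold change of 1.99 ± 0.30, edgeR adjusted p = 0.0414). Cd74, Cst3, H2-Aa and H2-Ab1, the most abundant members, overlapped. Without overlap, 2 of the 10 lay higher, Itgax and Ciita, and 1 lower, Zbtb46, against 12.7% and 12.0% of all genes tested. Zbtb46 measured 168, 151 and 218 CPM in WT and 115, 136 and 119 CPM in Nfkb2-/- BMDCs (log2 fold change of -0.54 ± 0.18, edgeR adjusted p = 0.192). Of 11 macrophage and 7 tested neutrophil markers, edgeR and limma voom called 0, and DESeq2 called Apoe and Ngp as lower in Nfkb2-/- BMDCs (adjusted p = 1.55e-04 and 0.00613). Csf1r, C1qb, Adgre1 and Mertk overlapped, as did the neutrophil genes S100a8, Ngp, S100a9 and Retnlg. Apoe lay lower without overlap, at 82.3, 56.5 and 3.68 CPM in WT and 2.25, 0.725 and 0.898 CPM in Nfkb2-/- BMDCs (edgeR adjusted p = 0.0770). Of 5 tested mast cell and basophil markers edgeR called 1. Cpa3, a mast cell protease, fell from 7.98 ± 2.43 CPM (SD, n = 3) in WT to 2.23 ± 0.328 CPM (SD, n = 3) in Nfkb2-/- BMDCs. Kit, at 37.2 to 50.5 CPM, Ms4a2 and Prss34 were the other abundant members and were not called. Without overlap, 3 of the 5 tested lay lower in Nfkb2-/- BMDCs and 0 higher, against 12.0% and 12.7% of all genes tested. The 3 were Cpa3 and, at no more than 1.42 and 0.735 CPM, Ms4a2 and Mcpt8. Plasmacytoid DC markers, mostly Ccr9 with Siglech, Cox6a2 and Klk1, summed to at most 7.95 CPM. The most abundant T and NK cell markers, Cd3e, Cd3g, Cd2 and Trbc2, reached at most 1.18 CPM, and the most abundant B cell markers, Pax5, Cd79a, Ms4a1 and Cd79b, at most 2.39 CPM. Each of these 8 was highest in Nfkb2-/- replicate 1. Cd3g, Trbc2 and Cd79b lay higher in every Nfkb2-/- library than in any WT library, at no more than 0.739, 0.414 and 0.325 CPM. Cd3e, Cd2, Pax5, Cd79a and Ms4a1 overlapped between the genotypes. Stromal markers (Col1a1, Col1a2, Dcn and Pdgfrb) summed to 52.4, 12.6 and 0.998 CPM in WT and 24.1, 15.8 and 5.46 CPM in Nfkb2-/- BMDCs. The part of these cells in the levels of Il12b and Ebi3 was not tested.

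The 6 libraries were also searched for genes whose log2 CPM followed that of each abundant subunit most closely, among the 10645 genes that averaged 5 CPM or more. Likeness was measured as Pearson's r over the 6 libraries, as a description, since the values of a library share its depth. For Il12b these were Sox4, Trim24, Mmp25, Srrm2 and Gypc, with r of 0.998, 0.998, 0.998, 0.998 and 0.997. Sox4, a transcription factor, measured 369, 175 and 517 CPM in WT and 86.1, 106 and 87.5 CPM in Nfkb2-/- BMDCs. Srrm2, a splicing factor, also separated the genotypes but with far smaller differences, 1202, 1124 and 1215 CPM against 1049, 1067 and 1060 CPM. For Ebi3 they were Chd6, Cd302, Zfp113, Rcsd1 and Tsc1, with r of 0.993, 0.992, 0.991, 0.990 and 0.990. Of these 10 genes, Cd302 and Tsc1 were called, both as lower in Nfkb2-/- BMDCs, with log2 fold changes of -0.95 and -1.28 (adjusted p = 0.0491 and 0.0394 from edgeR). Among all genes tested 1.14% were called. The 10 were picked for following subunits that were lower in Nfkb2-/- BMDCs, so their direction follows from the choice. Tsc1, an inhibitor of mTOR signaling, measured 164, 146 and 216 CPM in WT and 66.0, 73.6 and 76.7 CPM in Nfkb2-/- BMDCs.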

How the data were processed

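The authors made the deposited files, which hold whole-number read counts per Ensembl gene for each of 6 libraries, without normalization. The submitters' processing notes name HISAT2 and the build GRCm38 (mm10). The counting tool, annotation and strand setting are not given in the sources used here. A joined table with the same counts was not used. Names, positions and exon lengths came from GENCODE M21 (GRCm38), in which 52073 of 56748 IDs have a name, and promoters from RefSeq (GRCm38.p6). Counts on unnamed IDs (1.01% to 1.75% of a library) stayed out of the fits, apart from 1 alternative that kept them.

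Named genes with a sum of 50 or more counts were normalized with TMM and compared with glmQLFit and glmQLFTest (edgeR 4.0.16, R 4.3.3, Benjamini-Hochberg adjustment, threshold 0.05 and 1.2-fold). The standard error is the size of the log2 fold change over the square root of F. Alternatives used DESeq2 1.42.0, limma voom 3.58.1, other scalings and filters, the replicate number as a block, and each library left out. The fits were tested on simulated counts. One count was worth 0.0187 to 0.0344 CPM. The study calls the replicates biological without saying whether they came from separate animals, and p-values measure the spread between these libraries. The subunits and lists were chosen with earlier results of these data known. Results of 3 genes were left out of the lists and are not reported here. Named are all subunits and receptors, the remaining transducers, Nfkb2, the 4 most abundant and all called members of the other lists, and the 5 genes most like a subunit. Others were named after their values were seen.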

Additional observations from a re-analysis of the deposited data

How the results depend on the processing

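The decreases of Il12b and Ebi3 kept their direction in all 15 alternatives, with log2 fold changes from -3.50 to -2.62 and from -1.54 to -1.23. Both passed the threshold with every other tool, scaling and filter tried, and Il12b kept 9 and Ebi3 10 of 15 calls. With the replicate number as a block they missed it, at -2.87 for Il12b (adjusted p = 0.0848) and -1.40 for Ebi3 (adjusted p = 0.0663, edgeR). Same-numbered WT and Nfkb2-/- libraries had correlations of their deviations of 0.262, 0.148 and 0.0224. Pairs of unlike number had -0.186, -0.0198, -0.202, 0.0111, -0.237 and 0.164. With 3 libraries per genotype these values cannot decide whether the numbers pair the libraries. The fit of all libraries treated them as unpaired. The block left 0 genes called of all genes tested, 0 subunits and 0 of the genes of the other lists, with 3331 genes at an unadjusted p-value under 0.05. With 1 library left out, the called genes numbered 0 to 1248, the called subunits 0 to 2 and the called genes of the other lists 0 to 18. The 248 genes called in the fit of all libraries became 1890 with DESeq2, 488 with limma voom, 397 with filterByExpr, 1625 with no filter and 459 with at least 10 counts in every library. Genes called in the other lists, 4 in that fit, became 19 with DESeq2 and 24 with no filter. Il23a and Il27 changed sign with single libraries left out, with log2 fold changes from -0.39 to 0.16 and from -0.053 to 0.80. The cause of these changes was not tested. Il23a could be fitted in 13 and Il27 in 10 of the 15 alternatives, and Il12a only with no filter, where its log2 fold change was 1.64 (adjusted p = 0.773, edgeR). The log2 differences in the ratios of chains kept their direction in all 8 alternatives each, with wide ranges when 1 library was left out, from -4.91 to -2.11 for Il12b to Il12a, -2.68 to -1.07 for Il12b to Il23a, -3.48 to -0.93 for Ebi3 to Il27 and -3.57 to -0.70 for Ebi3 to Il12a. Their exact permutation p-values ran from 0.1 to 0.7, with 0.1 for Il12b to Il12a with 2 counts added (-3.31) and without Nfkb2-/- replicate 3, and for Ebi3 to Il27 without WT replicate 1. Depth limits the α chain genes, which had at most 22 counts in a library.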
